A study of Homo sapiens with 8 samples.

Results

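Binding of the transcription factors TEAD1 and TEAD4 and of their coactivators YAP and TAZ was examined around 6 receptor tyrosine kinase genes, AXL, MET, FGFR1, FGFR2, IGF1R and EPHA2, in the human cell line HuCCT1, which comes from a cholangiocarcinoma, a cancer of the bile ducts. Peaks were taken from 5 deposited lists when their centre lay within 100 kb of 1 given start site per gene on the hg19 build. This gave 63 of the 51828 peaks in all 5 lists. Of the 38186 TEAD1 peaks, 45 lay at the 6 loci, as did 16 of the 12188 TEAD4 peaks and 2 of the 847 HA-YAP5SA peaks. None of the 454 YAP peaks and none of the 153 TAZ peaks did.

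The study was done by chromatin immunoprecipitation and sequencing (ChIP-seq), and its 8 libraries are 1 each of HA-YAP5SA, YAP, TAZ, TEAD1, TEAD4, GFP, IgG and input. HA-YAP5SA is YAP with the serines targeted by the LATS kinases replaced by alanine, carrying an HA tag and recovered through that tag, while the other 4 lists came from antibodies against the proteins themselves. The labels give no treatment or time point, and they do not say whether cells used for the YAP, TAZ and TEAD libraries carried the tagged form. The GFP, IgG and input libraries were not analysed here. There was 1 library per antibody, so differences between the lists could not be checked against replicates and no test was run. The depth of each library is unknown, and a locus without a peak had none above the authors' threshold, which is not the same as no binding.

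Receptor tyrosine kinases span the cell membrane, bind a ligand outside the cell and phosphorylate tyrosines inside it, which feeds the RAS and PI3K pathways. In bile duct cancer FGFR2 is known for activating gene fusions, and MET, AXL, IGF1R and EPHA2 have been studied as drivers of growth, invasion or drug resistance. TEAD proteins bind DNA through a short motif whose core reads GGAATG, and YAP and TAZ reach DNA mainly through them. Most known YAP and TEAD sites are enhancers at a distance from start sites, and a window of 100 kb on either side can also cover other genes. In the RefSeq gene order of GRCh38, the closest protein-coding neighbours upstream and downstream are CYP2S1 and HNRNPUL1 for AXL, CAV1 and CAPZA2 for MET, TACC1 and LETM2 for FGFR1, ATE1 and WDR11 for FGFR2, ARRDC4 and PGPEP1L for IGF1R, and ARHGEF19 and FAM131C for EPHA2. This is an order of genes without distances, so it does not tell which of these neighbours lie within a window. No peak was assigned to a gene here, and a locus below means the window around its start site.

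A TEAD peak covered the start site at 1 of the 6 genes, EPHA2, which encodes a receptor for membrane-bound ephrin-A ligands. Its TEAD1 peak (chr1:16482328-16482943, hg19) reached from 361 bp upstream to 254 bp downstream of the start, and its TEAD4 peak (chr1:16482429-16482794) from 212 bp upstream to 153 bp downstream. The promoter sequence is shown for that reason, beside those of AXL, which had the strongest peak of all 6 loci but none on its start, and MET, which had the most TEAD1 peaks among the loci with no peak on the start. Each line holds 250 bases before and 50 bases after the start in RefSeq on GRCh38.p14, on the gene's own strand, and capitals mark a match to GGAATG on either strand (CATTCC on the other strand). The windows are chr1:16156020-16156319 on the minus strand for EPHA2, chr19:41218973-41219272 on the plus strand for AXL and chr7:116671946-116672245 on the plus strand for MET.
EPHA2: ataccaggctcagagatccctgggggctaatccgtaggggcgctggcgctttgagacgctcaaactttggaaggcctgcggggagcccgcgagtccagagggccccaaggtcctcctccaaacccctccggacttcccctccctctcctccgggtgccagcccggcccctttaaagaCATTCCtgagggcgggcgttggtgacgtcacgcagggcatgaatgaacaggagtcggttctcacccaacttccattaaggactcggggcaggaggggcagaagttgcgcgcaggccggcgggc
AXL: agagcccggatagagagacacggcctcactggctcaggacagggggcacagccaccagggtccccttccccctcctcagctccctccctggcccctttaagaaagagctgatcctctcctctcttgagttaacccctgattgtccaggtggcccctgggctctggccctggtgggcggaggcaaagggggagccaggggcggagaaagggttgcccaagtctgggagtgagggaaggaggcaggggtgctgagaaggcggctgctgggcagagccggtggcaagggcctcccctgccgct
MET: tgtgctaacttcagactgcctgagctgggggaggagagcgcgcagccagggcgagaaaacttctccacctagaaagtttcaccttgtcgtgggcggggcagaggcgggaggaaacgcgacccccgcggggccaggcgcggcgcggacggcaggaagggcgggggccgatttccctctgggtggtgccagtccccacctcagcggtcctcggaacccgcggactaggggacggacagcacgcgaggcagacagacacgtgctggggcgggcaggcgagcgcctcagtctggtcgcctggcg
The match in the EPHA2 promoter begins 73 bases upstream of the RefSeq start and reads in the reverse direction. The AXL and MET promoters printed here hold none.

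GGAATG occurred in 4928 of the 35116 promoter windows in the RefSeq table (14%), all 300 bases long. The table matched 5 of the 6 genes with 10 windows in all, since AXL has 2 and FGFR2 has 5, and 4 of these 10 held the core. Beside EPHA2 these were the second AXL window, with a match beginning 212 bases upstream of its start, and 2 of the alternative FGFR2 windows, with matches beginning 218 and 84 bases upstream. The single windows of MET and IGF1R held none. The AP-1 motif TGANTCA, in which N is any base, was searched on both strands. It was in none of the 10 windows and in 7.71% of all windows, so no match of one motif overlapped one of the other here. These matches describe letters in the GRCh38 sequence, were not placed on hg19, and say nothing about binding by themselves.

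The loci differed in the number of TEAD peaks, from 11 TEAD1 and 6 TEAD4 peaks at EPHA2 to 4 TEAD1 peaks and 1 TEAD4 peak at IGF1R. MET had 10 TEAD1 peaks and 1 TEAD4 peak. FGFR2 had 8 and 3, FGFR1 had 7 and 3, and AXL had 5 and 2. As a yardstick, chromosomes 1 to 22 and X were divided into 15176 tiles of 200 kb, the length of each window. The 6 loci had a mean of 7.5 TEAD1 peaks, against 2.50 per tile (median 2, interquartile range 0 to 4), and a mean of 2.67 TEAD4 peaks, against 0.800 per tile. All 6 loci held both a TEAD1 and a TEAD4 peak, while 67.5% of tiles held a TEAD1 peak and 38.9% a TEAD4 peak. Tiles include gene deserts and unsequenced gaps and are not centred on start sites, so a background made of genes may be higher. At least as many TEAD1 peaks as at EPHA2 were found in 2.17% of tiles, and at least as many as at MET in 3.23%. For FGFR2 this share was 7.02%, for FGFR1 9.96%, for AXL 20.1% and for IGF1R 27.5%. TEAD4 numbers were also set beside tiles with the same number of TEAD1 peaks. Among the 108 tiles with 11, as at EPHA2, the median was 4 TEAD4 peaks (interquartile range 3 to 5), and 20.4% had 6 or more. At AXL, FGFR1, FGFR2 and IGF1R, 42.3 to 74.6% of such tiles had at least the TEAD4 number of the locus. MET is described below.

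**Figure D1:**
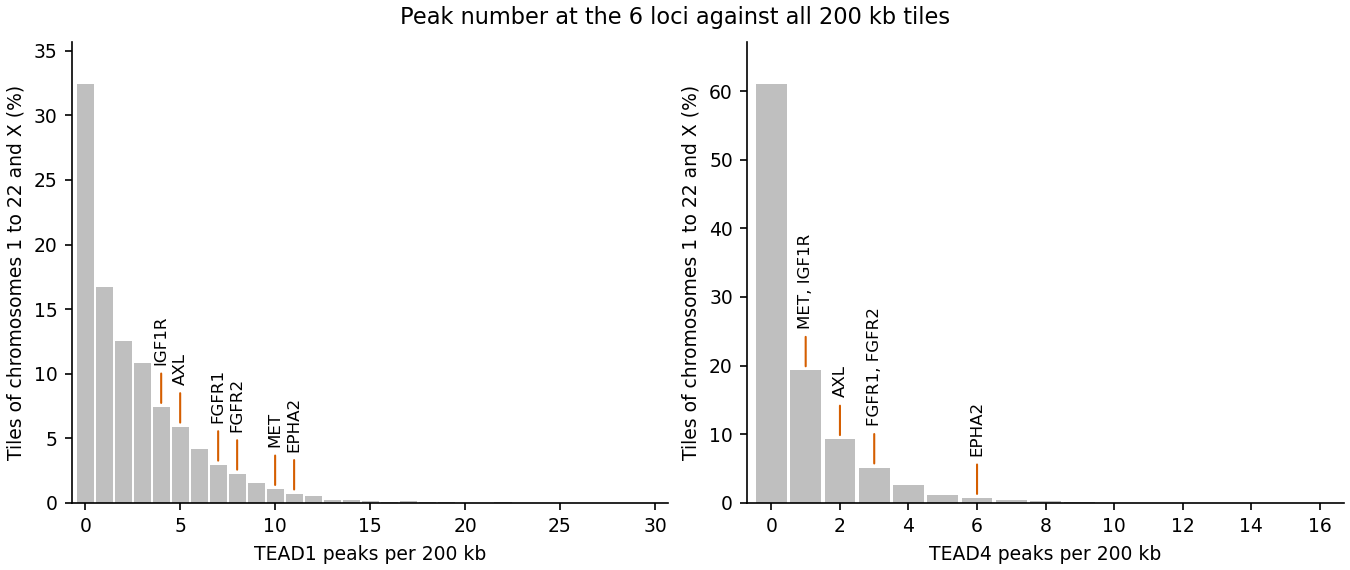
Number of TEAD1 peaks (left) and TEAD4 peaks (right) at the 6 loci, marked by name, on the distribution over 15176 tiles of 200 kb, drawn as the percentage of tiles (bars) with each number of peaks. EPHA2 stands farthest to the right for both factors, with 11 TEAD1 and 6 TEAD4 peaks, while MET had 10 TEAD1 peaks and shares 1 TEAD4 peak with IGF1R.

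The order of the loci depended on the window. Within 50 kb EPHA2 had 10 TEAD1 peaks, MET 7, AXL 3, FGFR2 2, and FGFR1 and IGF1R 1 each. Within 200 kb MET led with 22, ahead of EPHA2 and FGFR2 with 14 each, FGFR1 with 13, AXL with 10 and IGF1R with 5. EPHA2 thus had nearly all of its peaks close to the start site, and IGF1R had few at each width. At the edge of the 100 kb window, the outermost TEAD1 peaks inside were at FGFR2 (97.9 kb) and IGF1R (97.1 kb), and the closest outside were at FGFR2 (100.07 kb, on the 65.2 percentile of the TEAD1 list), MET (100.3 kb, 58.4) and AXL (102.8 kb, 81.4).

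**Figure D2:**
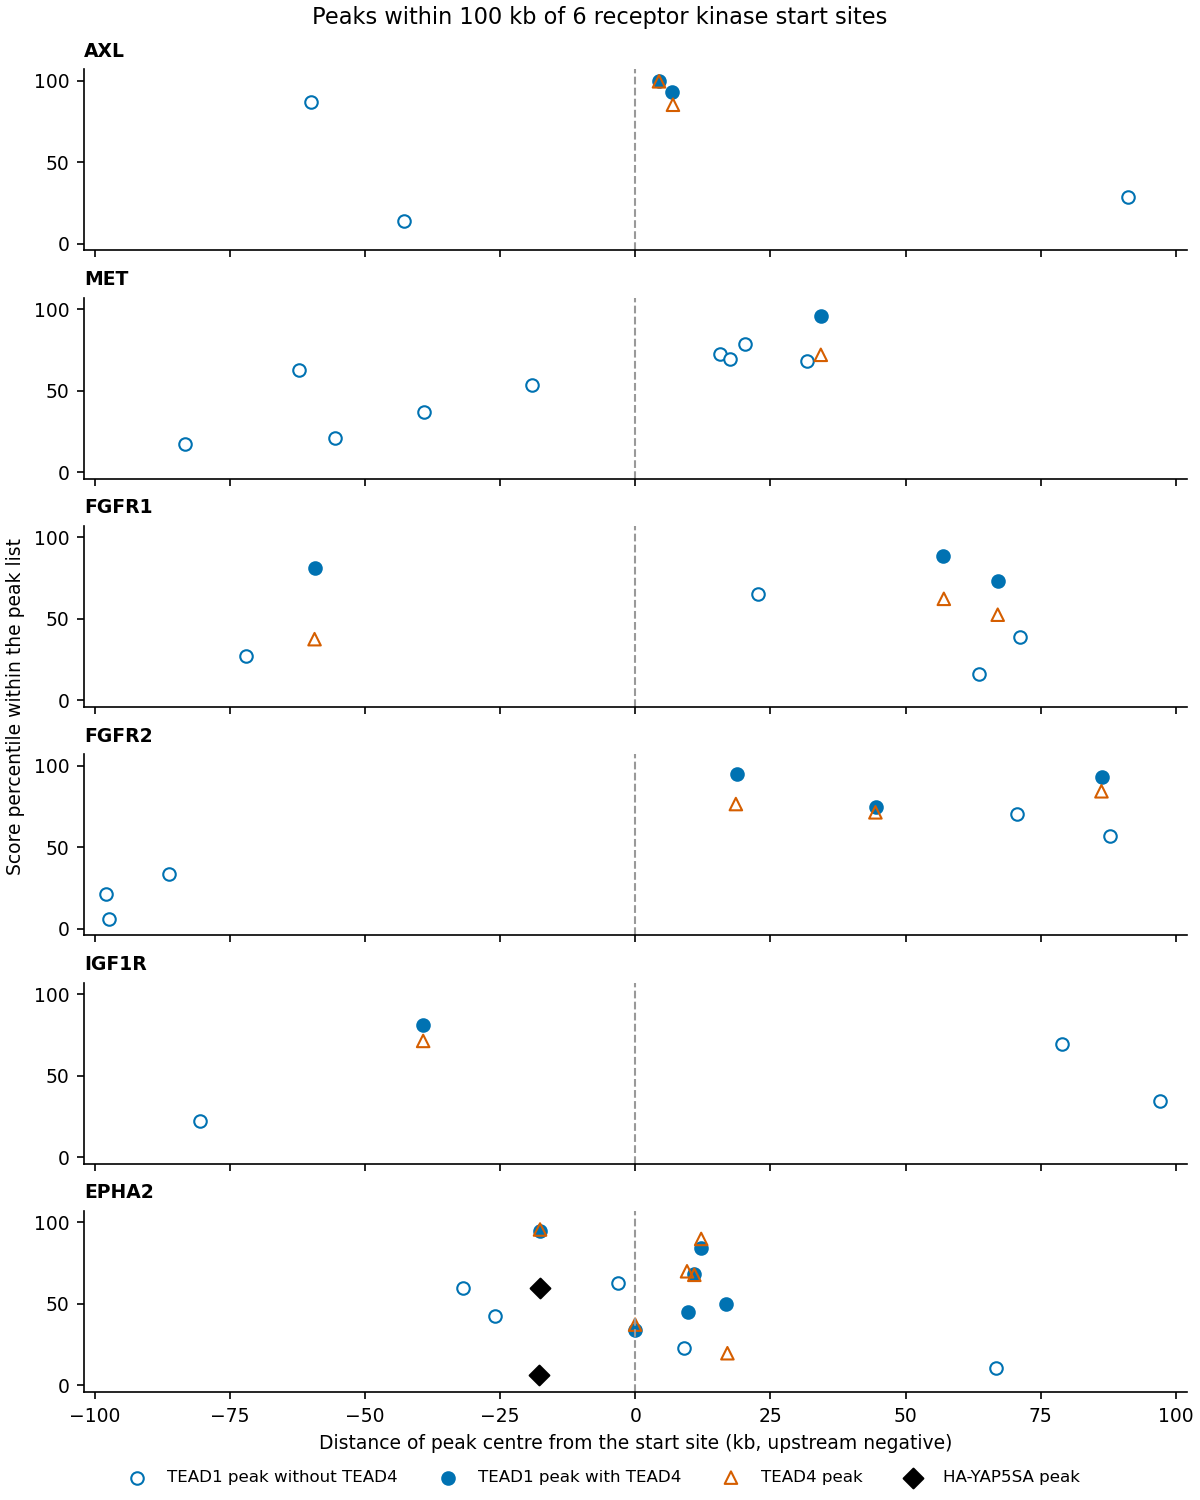
Peaks at the 6 loci by the distance of their centre from the start site (x axis, kb, upstream negative) and their score percentile within their own list (y axis, 100 highest). Filled circles are TEAD1 peaks with TEAD4, open circles TEAD1 peaks without, triangles TEAD4 peaks and diamonds HA-YAP5SA peaks. The highest points are the pair near the AXL start, EPHA2 is the one locus with points on the start site and with diamonds, and the MET points upstream of the start are all open.

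Among all 45 TEAD1 peaks, the median score percentile was 62.6 (interquartile range 33.5 to 78.7), where the middle of the list lies at 50. The score is the value that the authors' peak caller gave each peak and is used here for rank alone, a percentile of 100 being the strongest peak in a list. The 16 TEAD4 peaks had a median percentile of 71.3 (59.9 to 84.5), where the middle of their list also lies at 50. Of the 45 TEAD1 peaks, 6 were in the highest decile of the list (13.3%, exact 95% binomial interval 5.05 to 26.8%), against 10% by construction. They were 2 each at AXL and FGFR2 and 1 each at MET and EPHA2. The 6 loci thus held more TEAD peaks than a typical tile, of ranks spread over most of the list. The genes were chosen with earlier results of these data known, so this is a description and not a test of enrichment.

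TEAD4 was present at 16 of the 45 TEAD1 peaks (35.6%, 21.9 to 51.2%), where overlap means at least 1 shared bp, against 30.6% of the whole TEAD1 list. Leaving out EPHA2, it was present at 10 of 34 (29.4%, 15.1 to 47.5%). In the other direction, all 16 TEAD4 peaks lay on a TEAD1 peak, against 97.1% of the whole TEAD4 list, so no TEAD4 site at these loci stood alone. The paired centres were a median of 59.2 bp apart (8 to 242 bp), against 44 bp over all 11841 pairs of overlapping peaks in the series. The share with TEAD4 is therefore close to the background over the loci together. Per locus it ran from 1 of 10 TEAD1 peaks at MET (10%, 0.253 to 44.5%) to 6 of 11 at EPHA2 (54.5%, 23.4 to 83.3%), and the interval of each locus held the background.

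AXL, the receptor for the ligand GAS6, had the strongest TEAD site of the 6 loci. Its TEAD1 peak at 4.37 kb downstream of the start (chr19:41729225-41729738) scored 2187 and ranked 91 of 38186. The TEAD4 peak on it (chr19:41729202-41729792) scored 1392 and ranked 50 of 12188. The centres of these peaks were 15.5 bp apart, and they stood at the 99.8 and 99.6 percentiles of the TEAD1 and TEAD4 lists. Of the 10250 tiles with a TEAD1 peak, 0.868% had a top peak at least as high in rank as this one, and of the 5905 tiles with a TEAD4 peak 0.864% did for TEAD4. At 6.79 kb downstream a second TEAD1 peak (chr19:41731473-41732332) ranked 2623 and carried a TEAD4 peak (chr19:41731791-41732362) that ranked 1801. Both sites fell within 3.11 kb. Their distances run from the 1 given start. The second AXL promoter window (GRCh38 chr19:41226505-41226804) lies downstream of the first. The first begins at chr19:41218973, so the spacing of the windows is similar to the 6.79 kb of the second site. That site may thus lie near this alternative start. The windows were not placed on hg19, so the exact distance is not given. The other 3 TEAD1 peaks had no TEAD4. The one 59.9 kb upstream (chr19:41664895-41665427, percentile 86.7) ranked 5071, while the peaks 42.8 kb upstream and 91.2 kb downstream were at the 13.9 and 28.5 percentiles.

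No HA-YAP5SA peak lay on the AXL sites. Over the whole series, HA-YAP5SA overlapped 232 of the 382 TEAD1 peaks above the 99th percentile (60.7%). Among the 91 TEAD1 peaks down to the rank of the AXL peak, 19 had no HA-YAP5SA, the AXL peak included. The closest HA-YAP5SA peak was 2.57 Mb upstream of AXL and ranked 840 of 847. The strongest TEAD1 site at these loci was thus among the smaller share of top TEAD1 sites that have no HA-YAP5SA peak.

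EPHA2 was the only one of the 6 loci with HA-YAP5SA peaks, within a tile background of 4.94% with at least 1. Among the 108 tiles that, like EPHA2, had 11 TEAD1 peaks, 27.8% had an HA-YAP5SA peak. The 2 peaks (chr1:16500022-16500222, score 130, rank 339 of 847, and chr1:16500301-16500415, score 82.3, rank 795) were 78 bp apart and lay 17.5 and 17.8 kb upstream of the start. Both fell on a single TEAD1 peak (chr1:16499950-16500617, rank 2033, percentile 94.7) and a single TEAD4 peak (chr1:16499918-16500476, rank 534, percentile 95.6), the highest-ranked TEAD1 and TEAD4 peaks of the locus. Of the 787 TEAD1 peaks with HA-YAP5SA in the series, 19 held 2 or more (2.41%). Overlap with both TEADs is the rule for HA-YAP5SA and was found at 92.2% of its 847 peaks. At the median score of the HA-YAP5SA list or above, 1 of the 2 peaks remained. The lower-ranked one was close to the lowest score in the list, 80.1.

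Over the 6 loci, HA-YAP5SA was present at 1 of 45 TEAD1 peaks (2.22%, 0.0562 to 11.8%), against 2.06% of the whole list, and at 1 of 16 TEAD4 peaks (6.25%, 0.158 to 30.2%), against 6.28%. Of the 6 TEAD1 peaks in the highest decile, 1 had HA-YAP5SA (16.7%, 0.421 to 64.1%), against 17.3% of that decile over the whole list. These shares are near the background. YAP was on none of the 45 TEAD1 peaks, which allows a share of up to 6.67%, against 0.21% of the whole list. TAZ was on none either, and on 0% of the whole list. Peaks of YAP were in 0.883% of tiles and peaks of TAZ in 0.323%, so 6 loci could not show whether they have fewer.

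The sparse lists came no closer to the other receptors. The nearest HA-YAP5SA peak was 396 kb downstream of FGFR1 (chr8:37930057-37930221, rank 837), 520 kb downstream of FGFR2 (chr10:122838332-122838573, rank 419), 648 kb upstream of IGF1R (chr15:98543866-98544027, rank 412) and 1.82 Mb upstream of MET (rank 465). The nearest YAP peaks were 2.90 Mb from EPHA2, 4.77 Mb from FGFR1, 6.90 Mb from FGFR2, 12.9 Mb from AXL and 54.3 Mb from MET, and chromosome 15, which holds IGF1R, had no YAP peak at all. The nearest TAZ peak to any of the 6 was 4.23 Mb away, at FGFR2. Over the series, YAP overlapped 80 and TAZ 0 of the 38186 TEAD1 peaks, and single tiles held up to 28 YAP and 16 TAZ peaks. Whether the YAP and TAZ lists reflect binding with TEAD was not tested, so these distances say little about the receptors.

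EPHA2 also had a group of TEAD1 peaks downstream of the start, and its other peaks were more scattered. Between 8.95 and 16.8 kb downstream of the start, 5 TEAD1 peaks lay within 8.74 kb (chr1:16465209-16473947) and covered 48.3% of that stretch, and 4 of them carried TEAD4. Of these, the site at 12.1 kb ranked highest, with TEAD1 at the 84.1 percentile (chr1:16469978-16470921) and TEAD4 at the 89.8 percentile (chr1:16470041-16470743). At 9.72 kb the TEAD1 peak was at the 44.8 percentile and its TEAD4 peak (chr1:16472749-16473274) at 70.0. At 10.8 kb TEAD1 (chr1:16471415-16472111) was at 68.1 and TEAD4 at 67.8, and at 16.8 kb TEAD1 was at 50.1 and TEAD4 at 19.8. The fifth peak, at 8.95 kb, was at the 22.9 percentile and had no TEAD4. The site on the start itself was not strong in either list, with TEAD1 at the 34.1 percentile (score 131) and TEAD4 at the 37.3 percentile (score 131). The other 4 TEAD1 peaks, at 3.11, 25.9 and 31.8 kb upstream and 66.8 kb downstream, were at or below the 62.6 percentile and had no TEAD4. EPHA2 thus had the most TEAD1 peaks of the 6 loci, but the lowest top percentile, 94.7, among the 4 loci that reached the highest decile.

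EPHA2 had TEAD4 on TEAD1 peaks of lower rank, where TEAD4 was otherwise rare. In the lower 6 deciles of the TEAD1 score, 3 of its 7 TEAD1 peaks had TEAD4 (42.9%, 9.90 to 81.6%). This compares with 0 of 15 at the other 5 loci (0 to 21.8%) and 8.07% of the whole list. The loci were not matched within this band. EPHA2 had 2 peaks each in deciles 5 and 6, where 12.0 and 18.6% of the whole list had TEAD4, while most of the 15 were in lower deciles. In the deciles 7 to 9, TEAD4 was on 2 of 3 TEAD1 peaks at EPHA2 and on 5 of 14 at the other 5 loci (35.7%, 12.8 to 64.9%), against 53.4% of the whole list. In the highest decile it was on all 6 TEAD1 peaks, against 97%. The groupings of deciles were chosen after the values were seen. With 7 and 15 peaks the intervals are wide, and peaks of 1 locus lie close together and are not independent.

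**Figure D3:**
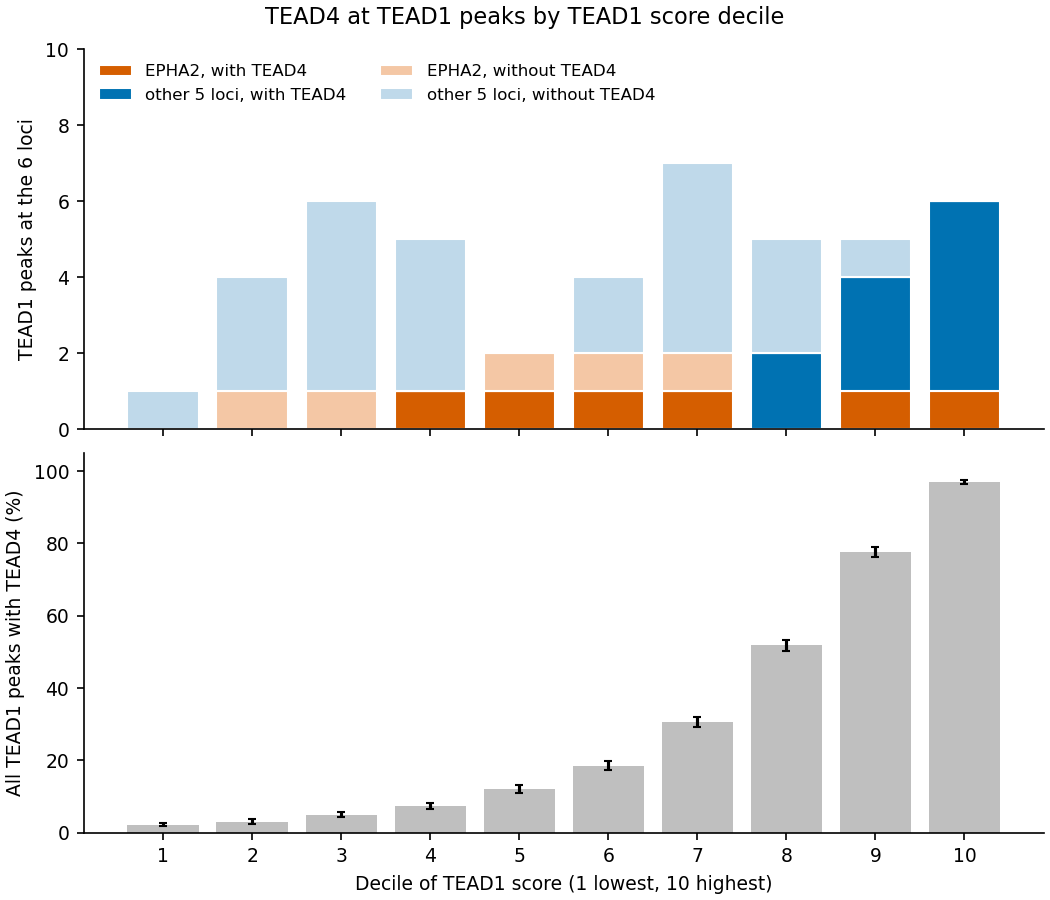
TEAD1 peaks at the 6 loci by decile of the TEAD1 score (top, number of peaks, EPHA2 and the other 5 loci, with and without TEAD4) and the percentage of all TEAD1 peaks of each decile that overlap TEAD4 (bottom, bars with exact 95% intervals). The 3 EPHA2 peaks with TEAD4 in deciles 4 to 6 stand where the whole list has TEAD4 at 7.49 to 18.6% of peaks.

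The ranks of TEAD4 and TEAD1 were compared at the shared sites. At 12 of the 16 sites the TEAD4 percentile was lower than that of TEAD1, with a median difference (TEAD4 minus TEAD1) of -8.38 points, against -24.0 over all pairs of the series. All 10 sites outside EPHA2 were of this kind, with differences from -43.7 points at FGFR1 to -0.170 points at AXL. At EPHA2, 4 of 6 sites had the higher percentile in TEAD4, by 0.948, 3.26, 5.71 and 25.3 points, against 6.67% of all pairs. In the same order, TEAD1 was at the 94.7, 34.1, 84.1 and 44.8 percentiles at these sites. The other two EPHA2 sites had differences of -0.215 and -30.4 points, the last being exceeded among the 16 sites by 1 FGFR1 site. Percentiles come from lists of different length and thresholds, so a difference of 0 has no meaning of its own and only the comparison with the other pairs can be read. That comparison was not matched on the TEAD1 percentile, which limits how far a difference can go in either direction. Sites of 1 locus also lie close together and are not independent.

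**Figure D4:**
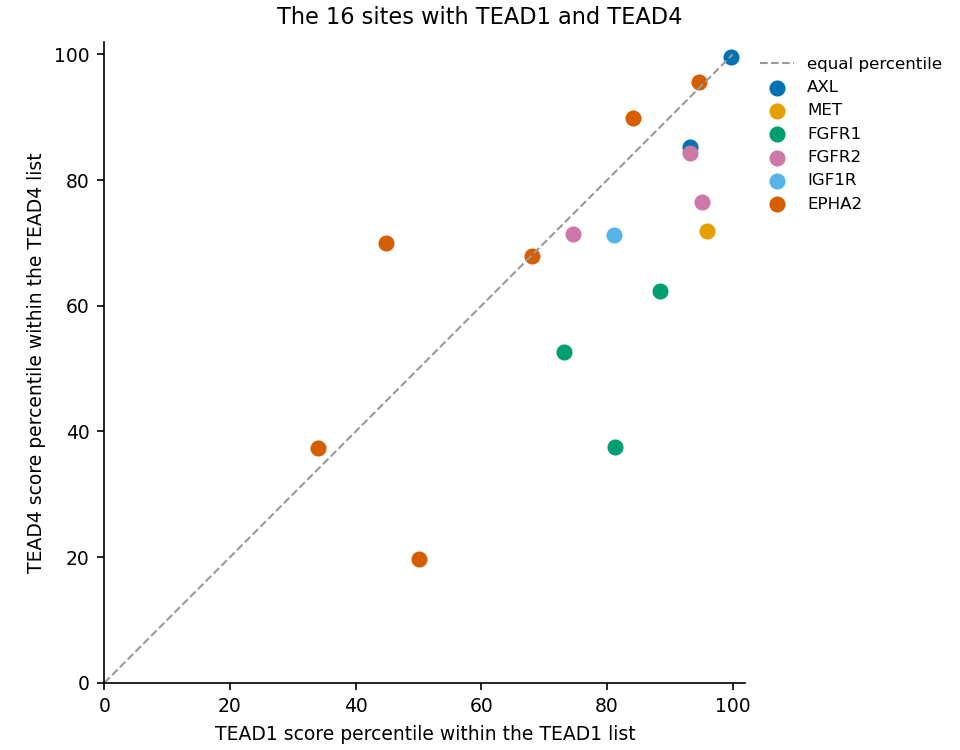
Score percentile of TEAD4 (y axis) against that of TEAD1 (x axis) at the 16 sites where their peaks overlap, coloured by locus, with a dashed line at equal percentiles. The 4 points above the line are EPHA2 sites, and the 3 FGFR1 sites lie 20.6 to 43.7 points below it.

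MET, the receptor for hepatocyte growth factor, had many TEAD1 peaks and little TEAD4. Its 10 TEAD1 peaks lay 5 upstream and 5 downstream, none closer than 15.7 kb to the start. Downstream, 3 lay between 15.7 and 20.4 kb and 2 between 31.7 and 34.3 kb, with percentiles of 72.4, 69.5, 78.7, 68.2 and 95.8 in that order. The last and strongest, at 34.3 kb (chr7:116346453-116347135, rank 1589), was the one that carried TEAD4 (chr7:116346611-116346943, rank 3421 of 12188), and the centres were 17 bp apart. The peaks next in rank were at 20.4 kb (chr7:116332576-116333115, rank 8116) and at 15.7 kb (chr7:116327803-116328439, rank 10533), which was the peak nearest the start. Upstream the 5 peaks, from 19.1 to 83.3 kb, had percentiles of 17.5 to 62.6 and a median of 36.8, and none had TEAD4. Among the 161 tiles with 10 TEAD1 peaks the median number of TEAD4 peaks was 4 (interquartile range 3 to 5), and 4.97% had 1 or none. MET thus had fewer TEAD4 peaks than most tiles with as many TEAD1 peaks. The TEAD1 peaks without TEAD4 at MET did not include any of the highest decile, where TEAD4 is near universal.

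FGFR2, a receptor for fibroblast growth factors, had its stronger sites downstream of the start. The 5 TEAD1 peaks there were at percentiles 56.8 to 95.0 and 3 of them carried TEAD4, while the 3 upstream peaks, at 86.2 to 97.9 kb, were at percentiles 6.30 to 33.5 without TEAD4. The strongest was 18.8 kb downstream (chr10:123338676-123339657, rank 1898) with TEAD4 (chr10:123339141-123339589, rank 2868), and was also the peak nearest the given start for both factors. The next, at 86.3 kb (chr10:123271405-123272015, rank 2616), carried the highest-ranked TEAD4 peak of the locus (chr10:123271566-123271926, rank 1914). The third, at 44.5 kb (chr10:123313199-123313769, rank 9714), carried the remaining TEAD4 peak (chr10:123313348-123313763, rank 3486). The peaks at 70.5 and 87.9 kb had none. Of the 5 FGFR2 promoter windows, the first begins at chr10:121598395 and the fifth at chr10:121531265 (GRCh38, minus strand). Their spacing is similar to 70.5 kb, so the peak at that distance may lie near an alternative start. The windows were not placed on hg19.

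FGFR1, another receptor for fibroblast growth factors, had no TEAD peak near its start. Its nearest TEAD1 peak was 22.8 kb downstream (chr8:38303291-38303905, percentile 65.1) and had no TEAD4. All 3 TEAD4 peaks lay beyond 57 kb, at 57.1 kb downstream (chr8:38269076-38269483, rank 4595), 67.0 kb downstream (chr8:38259097-38259531, rank 5781) and 59.3 kb upstream (chr8:38385325-38386017, rank 7609). The TEAD1 peaks at these sites (chr8:38268987-38269694, chr8:38258943-38259602 and chr8:38385073-38386253) ranked 4451, 10246 and 7135 of 38186. The upstream site had the widest TEAD1 peak of the 6 loci, 1181 bp, and the centres there were 8 bp apart. The other 3 TEAD1 peaks, at 63.5 and 71.1 kb downstream and 72.03 kb upstream, were at percentiles 16.1 to 39.2. FGFR1 and IGF1R were the 2 loci with no TEAD1 peak in the highest decile.

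IGF1R, the receptor for insulin-like growth factors, had the fewest peaks. The single site with both TEADs lay 39.3 kb upstream of the start (TEAD1 chr15:99152600-99153244, rank 7216, and TEAD4 chr15:99152763-99153175, rank 3505), and was the nearest peak to the start. The other TEAD1 peaks were 80.5 kb upstream (percentile 22.2), 78.9 kb downstream (chr15:99270715-99271395, 69.2) and 97.1 kb downstream (chr15:99289012-99289586, 34.7). No TEAD1 peak at IGF1R had another within 5 kb. Its counts of 4 TEAD1 peaks and 1 TEAD4 peak were within the upper part of the range seen in tiles, of which 27.5% had at least 4 TEAD1 peaks.

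Spacing, side and distance were then counted over the 6 loci together. Of the 45 TEAD1 peaks, 21 had another TEAD1 peak within 5 kb, centre to centre (46.7%, 31.7 to 62.1%), against 30.8% of TEAD1 peaks on chromosomes 1 to 22 and X. The share was highest at EPHA2, 7 of 11, and 0 of 4 at IGF1R. Peaks within 5 kb count each other, so the 45 peaks are not independent here and the interval is too narrow. The share over all TEAD1 peaks was also not matched for peak number, a mean of 7.5 at the loci against 2.50 per tile. Whether the spacing differs beyond that was not tested. TEAD1 peaks downstream of a start site numbered 26, of which 12 had TEAD4, with a median percentile of 69.4. Those upstream numbered 19, of which 4 had TEAD4, with a median percentile of 36.8. The downstream median was the higher one at AXL, MET, FGFR1, FGFR2, nearly level at IGF1R (51.9 downstream against 51.7 upstream), and the lower one at EPHA2 (47.5 downstream against 59.9 upstream). TEAD4 was on 30.6% of the whole TEAD1 list, from 2.20% in the lowest score decile to 97.0% in the highest. The sides were not matched on TEAD1 percentile, and whether TEAD4 differs by side beyond that was not tested. By distance, 16 TEAD1 peaks lay within 25 kb of a start, 8 of them at EPHA2. Of the 16, 9 had TEAD4, and 6 of these 9 were at EPHA2. Over the whole TEAD1 list the share with TEAD4 was 30.6%. At 75 to 100 kb there were 10 TEAD1 peaks, none of them at EPHA2, of which 1 had TEAD4, with a median percentile of 31.0. Whether TEAD4 changes with distance was not tested, and EPHA2 weighs on the closest bin. The split by side, the 5 kb distance and the comparisons with tiles of an equal number of TEAD1 peaks were chosen after the values were seen.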

How the data were processed

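Chromatin of HuCCT1 cells was fixed with formaldehyde, sonicated and precipitated with antibodies, and sequencing libraries were made with an NEBNext kit, per the labels' protocols. The submitters' processing notes name Bowtie2, with no version, and the hg19 build. The deposited lists give each peak a score by the authors, on a scale they do not state, and the peak names begin with MACS, a peak caller. Not given in the sources used here are its version, threshold and control library. Each list comes from 1 library, and none was pooled. A list reflects antibody, depth, control and threshold together, so scores were used only for ranks within a list, and numbers of peaks do not measure binding sites.

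Start sites were those given in hg19 by the rule that defined the loci, 1 per gene. Strands came from the RefSeq promoter table (GRCh38.p14), and that of FGFR1 from general knowledge. Starts in the lists without a header were raised by 1, so starts are uncertain by 1 bp. Distances run from peak centres. The percentile is the rank of a score within its list. Tiles of 200 kb ran from the first base of each chromosome to its last TEAD1 peak. Intervals are exact Clopper-Pearson at 95%, a count of 0 was read as allowing 3, and both cover counting error only. Alternatives were windows of 50 and 200 kb, any base within 100 kb, a score at or above the list's median, overlap of 50% of the shorter peak, centres within 500 bp, and leaving out each locus. Counting and overlap steps were tested on simulated data. No hg19 genome or annotation was at hand, so no peak was assigned to an exon, intron or gene. Peaks given with coordinates at the loci are every HA-YAP5SA, YAP or TAZ peak at a locus and, per locus, the nearest and the 3 strongest TEAD1 and TEAD4 peaks. Other peaks are given by distance or range. Genes, lists and comparisons were chosen with earlier results of these data known. Software was SciPy 1.17.1, pandas 2.3.3, NumPy 2.4.6 and matplotlib 3.10.9 under Python 3.11.15.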

Additional observations from a re-analysis of the deposited data

How the results depend on the processing

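Of 80 values recomputed under the other settings, 72 stayed within 1.5 times the main count or within the interval of the main share or median. This number is a loose guide, because some YAP and TAZ values could not have moved and the intervals are wide (0.0562 to 11.8% for HA-YAP5SA on TEAD1 peaks). The 45 TEAD1 peaks became 24 with a window of 50 kb, and 78 with a window of 200 kb, where the 16 TEAD4 peaks became 28. When the lower-scoring 50% of each list was dropped, 27 TEAD1 peaks and 1 of the 2 HA-YAP5SA peaks were left. These changes follow from wider or narrower windows and fewer peaks. Leaving out each locus in turn gave 34 to 41 TEAD1 peaks, 10 to 15 TEAD4 peaks, 0 to 2 HA-YAP5SA peaks, TEAD4 on 29.4 to 42.9% of TEAD1 peaks, HA-YAP5SA on 0 to 2.86% and a median TEAD1 percentile of 59.9 to 66.6. Without EPHA2 there were 10 TEAD4 peaks and no HA-YAP5SA peak, and HA-YAP5SA was on 0% of TEAD1 peaks. YAP and TAZ had 0 peaks under each of these alternatives. From a count of 0, only the window of 200 kb and the rule of any base within 100 kb could have given another value. No paired analysis was possible because each antibody has 1 library and no test was run. The unknown depth of the libraries limits what the absence of a peak can show.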
